A study of Mus musculus with 18 samples.

Results

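The complement genes Cfd, C3, C4b, Cfb, Cfp, C2, C1qa, C1qb and C1qc were followed across 3 mouse fat depots. These 9 genes were chosen by symbol, out of 45151 symbols that could be read in all 18 samples, and each was found in every sample. RNA-seq was carried out on inguinal white fat (iWAT, n = 6), epididymal white fat (eWAT, n = 6) and brown fat (BAT, n = 6). All mice were wild type C57BL/6J males aged 16 weeks that were maintained on regular chow, and no group received an agent. The iWAT and eWAT samples were mature adipocytes that floated after collagenase digestion, whereas BAT was frozen as whole tissue. Depot and preparation therefore cannot be told apart in either comparison with BAT. The series was collected to list receptors of fat cells, and the complement genes are described here in the same libraries. Samples are named by depot and by the number in their titles, and it is not stated in the labels whether equal numbers mark 1 mouse.

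Complement is a cascade of plasma proteins that tags cells and particles and recruits phagocytes. The classical pathway starts with C1q, a complex of the chains encoded by C1qa, C1qb and C1qc, and its convertase is built from C4 and C2. The alternative pathway uses factor B, factor D and properdin, and both routes cleave C3. Fat is known as the main source of factor D, which was first described in adipocytes under the name adipsin, while macrophages are a well known source of C1q.

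The depth was similar in the 3 depots. The total of reads behind the deposited RPKM (the read count divided by row length and library total) was 22929576 to 32141048 (iWAT), 26607733 to 34048018 (eWAT) and 26706786 to 34512470 (BAT). Levels below are RPKM, which is per length, while fold changes come from edgeR's quasi-likelihood test after TMM scaling, with a Benjamini-Hochberg adjusted p under 0.05 as the threshold. The log2 TMM factor of the first depot exceeded that of the second by 0.27 (iWAT against BAT), 0.73 (eWAT against BAT) and -0.44 (iWAT against eWAT), and log2 fold changes are lower by these amounts than on library totals alone. In the comparisons with eWAT the factors were taken on counts corrected for row length. They therefore carry the row lengths of other symbols into every gene. C2 had the same row in all depots, yet its log2 change in iWAT against eWAT was 0.67 with that correction and 0.25 without it. The brown fat markers were all higher in BAT than in iWAT and in eWAT (6 of 6 in both), and of 7 adipocyte markers 7 were higher in iWAT and 5 higher in eWAT than in BAT. In eWAT, samples 14 and 15 stood apart by transcripts of the epididymis (summed RPKM of 5 markers 76.5 and 69.9, against 0.042 to 3.63 in the other 4). In BAT, transcripts of skeletal muscle varied widely (summed RPKM of 5 markers), at 1340 in sample 12, 119 in sample 8 and 0.55 in sample 7, the lowest. In these bulk samples, fewer cells of a type and less RNA per cell cannot be told apart.

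The reference promoters are shown first because the results below differ between Cfd, which was high in white adipocytes, C3, which changed little against BAT, and the C1q chains, which moved together among samples. Windows of 250 bases before to 50 after the start, taken from RefSeq (GRCm38.p6), were found for 5 of the 9 genes (Cfd, C3, Cfp, C1qb and C1qc). The 250 bases upstream are given 5′ to 3′ on the gene's strand for 4 of these, with matches to the searched motifs in capitals.
Cfd, chr10:79890603-79890852, plus strand: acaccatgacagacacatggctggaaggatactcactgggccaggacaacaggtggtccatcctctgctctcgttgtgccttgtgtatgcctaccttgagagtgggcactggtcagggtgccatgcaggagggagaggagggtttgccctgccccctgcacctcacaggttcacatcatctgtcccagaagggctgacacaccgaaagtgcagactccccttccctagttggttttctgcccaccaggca
C3, chr17:57228137-57228386, minus strand: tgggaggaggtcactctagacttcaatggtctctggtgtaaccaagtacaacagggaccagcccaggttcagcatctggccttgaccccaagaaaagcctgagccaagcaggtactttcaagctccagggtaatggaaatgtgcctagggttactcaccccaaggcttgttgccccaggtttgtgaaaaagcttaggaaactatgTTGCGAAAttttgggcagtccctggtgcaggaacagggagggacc
C1qb, chr4:136886201-136886450, minus strand: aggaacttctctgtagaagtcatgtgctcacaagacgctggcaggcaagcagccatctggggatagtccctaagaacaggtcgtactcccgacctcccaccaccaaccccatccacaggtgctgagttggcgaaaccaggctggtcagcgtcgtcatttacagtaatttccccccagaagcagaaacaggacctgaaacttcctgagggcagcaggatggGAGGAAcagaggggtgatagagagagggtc
C1qc, chr4:136892915-136893164, minus strand: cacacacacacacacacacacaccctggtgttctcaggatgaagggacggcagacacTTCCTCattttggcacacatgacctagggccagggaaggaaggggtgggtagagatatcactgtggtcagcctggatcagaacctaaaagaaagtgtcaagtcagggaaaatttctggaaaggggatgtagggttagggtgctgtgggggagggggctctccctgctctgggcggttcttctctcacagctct

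In all, 5 motifs were searched in the whole windows on both strands. The PU.1 core GAGGAA was present in 3 of the 5 windows, against 28.3% of 32851 windows in the reference. It lay at base -30 of C1qb on the gene's strand, and on the opposite strand at base -193 of C1qc and at bases 7 and 23 after the start of Cfp. The C/EBP motif TTGCNNAA was present in the C3 window only (base -45, as TTGCGAAA), against 10.8% of all windows. The C3 window also held TATAAA at base 15 after the annotated start, as did 13.6% of all windows. No match to TTCNNNGAA (STAT, 8.3% of windows) or GGGANNTTC (kappa B, 3.9%) was found in the 5 windows. These matches describe letters in a window and not binding.

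White adipocytes carried far more mRNA of factor D, factor B, C4b and C2 than BAT. C3 was only mildly higher in iWAT than in BAT, and the C1q chains were not distinguishable between iWAT and BAT. Of the 9 genes, 6 were higher in iWAT than in BAT (Cfd, C3, Cfb, Cfp, C4b and C2), 0 were higher in BAT and 3 did not pass. Among all 19733 rows tested, 67.6% passed, 34.0% being higher in iWAT and 33.6% higher in BAT, so a passing gene is common here. The median log2 change was 1.12 for the 9 genes and 0.010 for all rows. In eWAT against BAT, 8 of the 9 genes were higher in eWAT and C3 did not pass. There, 73.9% of 18383 symbols passed, 39.9% being higher in eWAT and 34.0% higher in BAT, with a median of 2.67 for the 9 genes and 0.084 for all. In iWAT against eWAT, 5 genes were higher in iWAT (Cfd, C3, Cfb, C4b and C2), 2 were higher in eWAT (C1qb and C1qc) and 2 did not pass (Cfp and C1qa). Of all symbols, 52.5% passed, 24.2% being higher in iWAT and 28.3% higher in eWAT, with medians of 0.67 and 0.036. The 3 comparisons share samples, and in those with eWAT the kind of row counted (a transcript in eWAT, a merged gene elsewhere) follows the depot, so counting and depot cannot be told apart.

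**Figure D1:**
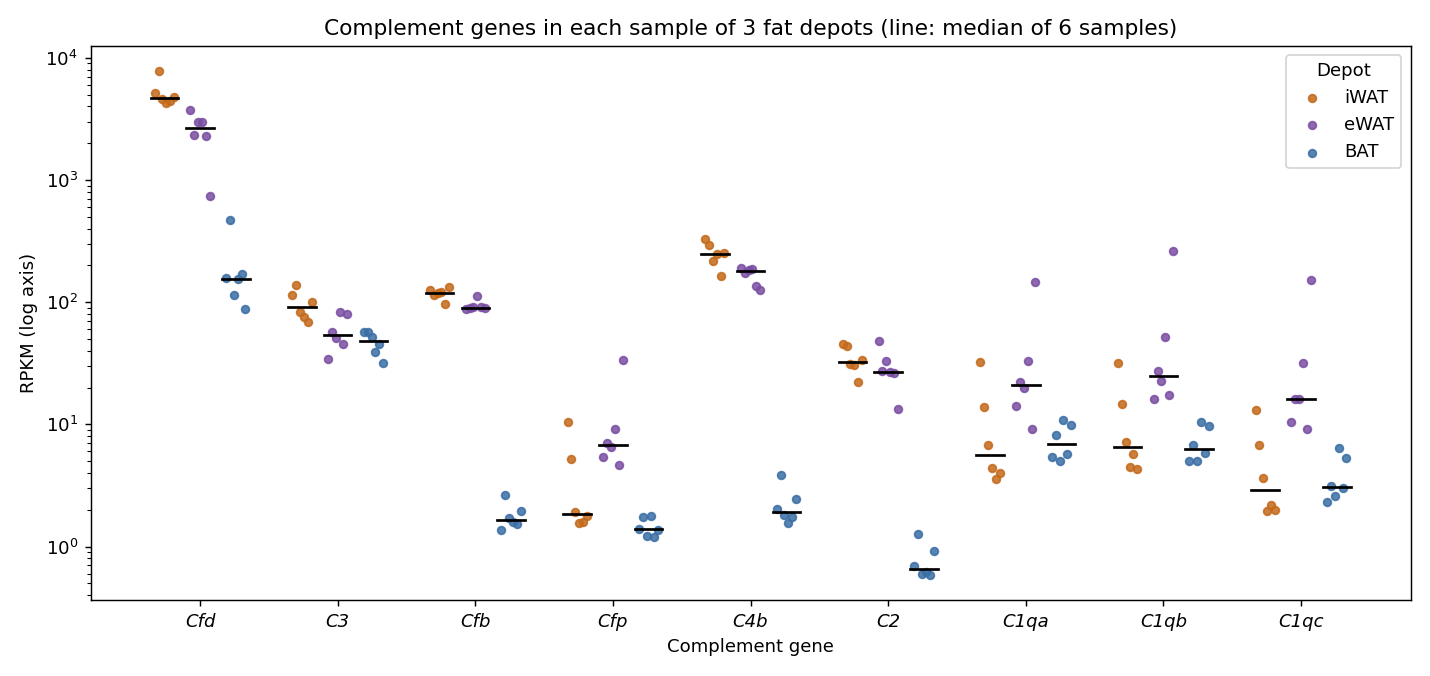
RPKM of the 9 complement genes in each sample (log axis), with 6 points per depot and a black line at the median. The iWAT and eWAT points of Cfd, Cfb, C4b and C2 all lie above the BAT points, while C1qa, C1qb and C1qc overlap between iWAT and BAT.

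Cfd, the serine protease factor D (chr10:79353598-79355401 in mm9, plus strand), was the most abundant of the 9 genes in every depot. In iWAT its level was 4263 to 7772 RPKM (median 4655), which ranked 9 among the 45151 symbols by mean. It was 746 to 3725 RPKM in eWAT (median 2668, rank 15) and 88.4 to 470 RPKM in BAT (median 155, rank 139). No depot overlapped with another: iWAT lay above eWAT and eWAT above BAT in all samples. Cfd was 22.4-fold higher in iWAT than in BAT (95% interval 12.6 to 40.0, adjusted p = 1.66e-07), 7.93-fold higher in eWAT than in BAT (4.46 to 14.1, adjusted p = 1.70e-06) and 2.77-fold higher in iWAT than in eWAT (1.61 to 4.79, adjusted p = 0.00312). The spread was uneven. In BAT, sample 7 was at 470 RPKM and the other 5 were between 88.4 and 171. In eWAT, sample 15 was lowest at 746 RPKM. Relative to adiponectin (Adipoq), another hormone of fat cells, the Cfd RPKM was 2.05 to 4.46 times as high (iWAT), 0.860 to 2.09 times (eWAT) and 0.342 to 1.19 times (BAT). These ratios did not overlap between iWAT and BAT, but their medians (2.42 and 0.552) were a smaller fold apart than those of Cfd itself. The eWAT ratios overlapped with those of both other depots. The row of Cfd lies inside the span of Med16 on the opposite strand, whose reads were 0.4% of those of Cfd in iWAT and 8.8% in BAT.

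Cfb, factor B of the alternative convertase (chr17:34993319-34999459, minus strand), was the least variable of the genes in white adipocytes. It measured 96.4 to 134 RPKM in iWAT (median 119.6), 88.4 to 112 RPKM in eWAT (median 90.3) and 1.37 to 2.64 RPKM in BAT (median 1.64). Its standard deviation was 10.8% of the mean in iWAT and 9.6% in eWAT. The white depots overlapped with each other and were far above BAT. Cfb was 54.8-fold higher in iWAT than in BAT (42.8 to 70.1, adjusted p = 9.05e-12) and 31.4-fold higher in eWAT than in BAT (25.2 to 39.0, adjusted p = 9.31e-15). It was 1.71-fold higher in iWAT than in eWAT (1.42 to 2.05, adjusted p = 5.40e-05), a call that was lost when only rows identical in both kinds of file were fitted (log2 change 0.39, adjusted p = 0.0619).

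C2, the serine protease of the classical convertase, is the neighbour of Cfb on chromosome 17 (chr17:34999547-35019045, minus strand). It was present at 22.2 to 45.7 RPKM in iWAT (median 32.2), 13.4 to 48.1 RPKM in eWAT (median 27.1) and 0.584 to 1.27 RPKM in BAT (median 0.655). As with Cfb, the white depots overlapped and both were above BAT in all samples. C2 was 36.7-fold higher in iWAT than in BAT (25.5 to 52.8, adjusted p = 3.93e-10) and 22.6-fold higher in eWAT (14.6 to 34.9, adjusted p = 1.32e-10). The difference of 1.59-fold between iWAT and eWAT (1.11 to 2.30, adjusted p = 0.0314) was not firm. It was lost without iWAT sample 7 or 11 or eWAT sample 8, 13, 14 or 15 (adjusted p of 0.0547 to 0.0792). It was also lost on identical rows (log2 change 0.30, adjusted p = 0.470), whereas summing all eWAT transcripts raised the log2 change from 0.67 to 2.12 (adjusted p = 4.63e-07). A readthrough row spans C2 and Cfb on the same strand, so reads of the 2 genes may be shared with it.

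C4b, the fourth component (chr17:34865325-34880842, minus strand), showed the largest change against BAT of the 9 genes in iWAT and in eWAT. Its level was 163 to 329 RPKM in iWAT (median 249.96), 126 to 192 RPKM in eWAT (median 178) and 1.55 to 3.85 RPKM in BAT (median 1.93). All white adipocyte samples were above all BAT samples, and iWAT overlapped with eWAT. C4b was 93.3-fold higher in iWAT (61.3 to 142, adjusted p = 1.75e-10) and 44.5-fold higher in eWAT (30.8 to 64.4, adjusted p = 9.18e-13) than in BAT, and 2.05-fold higher in iWAT than in eWAT (1.51 to 2.78, adjusted p = 0.000481). The row LOC675521 covers the same exons and held 99.9% as many reads in both iWAT and BAT. C4a, the close paralog of C4b, was far lower, with a C4b to C4a RPKM ratio of 502 to 3156 (iWAT), 497 to 1167 (eWAT) and 13.3 to 76.1 (BAT), and reads could be split between the copies in ways the files do not show.

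BAT sample 7, the highest in Cfd, was also the highest BAT sample in Cfb (2.64 RPKM), C4b (3.85 RPKM) and C2 (1.27 RPKM). It was likewise the highest BAT sample in the score of 6 genes that respond to tissue handling (2.70, against 0.173 to 1.98 in the other 5). Adipoq was also highest in BAT sample 7 (393.9 RPKM, against 258.3 to 304.32 in the other 5). The adipocyte marker score of that sample (7.3315) was nearly level with that of BAT sample 8 (7.3283). Whether handling or adipocyte content had a part in these 4 genes was not tested.

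C3, the protein on which all pathways converge (chr17:57343396-57367559, minus strand), behaved differently from its partner genes. It stood at 68.9 to 139 RPKM in iWAT (median 91.5), 34.2 to 82.6 RPKM in eWAT (median 53.8) and 32.0 to 57.3 RPKM in BAT (median 48.4). All iWAT samples were above all BAT samples, and eWAT overlapped with both. C3 was 1.71-fold higher in iWAT than in BAT (1.26 to 2.32, adjusted p = 0.00395, or 0.157 when tested against a fold change of 1.5) and 2.27-fold higher in iWAT than in eWAT (1.62 to 3.16, adjusted p = 0.000323). Between eWAT and BAT its log2 change was -0.43 (95% interval -0.91 to 0.041, adjusted p = 0.0916). That direction and the call depend on the processing. C3 was called lower in eWAT with DESeq2 size factors (adjusted p = 0.0418), a minimum mean RPKM of 1 (0.0396), the transcript with the highest RPKM (0.0396) or summed transcripts (log2 change -0.92, adjusted p = 0.00108), and without eWAT sample 13 or 15 or BAT sample 13 (0.0374 to 0.0407). In the other direction, on log2(RPKM + 0.1) without TMM the change was 0.27 (limma, adjusted p = 0.248). Without TMM the median of all 18383 symbols was 0.713. C3 shares its exons with LOC100048759 (89.5% as many reads in iWAT) on the same strand and overlaps the antisense row AK150340 (70.0%), and reads may be shared among these rows.

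Cfp, properdin, stabilises the alternative convertase (chrX:20502580-20508681, minus strand) and was the lowest of the 9 genes in iWAT and in eWAT. It measured 1.55 to 10.4 RPKM in iWAT (median 1.84), 4.66 to 33.6 RPKM in eWAT (median 6.74) and 1.19 to 1.77 RPKM in BAT (median 1.38). In iWAT, samples 7 (10.4 RPKM) and 11 (5.22 RPKM) were above the other 4, which reached 1.90 RPKM, and in eWAT sample 15 was highest. Cfp was 4.63-fold higher in eWAT than in BAT (2.07 to 10.4, adjusted p = 0.00145), with no overlap, and 2.71-fold higher without eWAT sample 15 (adjusted p = 0.00573). The 2.17-fold difference between iWAT and BAT (1.09 to 4.34, adjusted p = 0.0452) rests on iWAT sample 7, without which the log2 change fell from 1.12 to 0.48 (adjusted p = 0.186). It was also lost, with log2 changes of 1.01 to 1.15, without iWAT sample 11 or any BAT sample in turn, and under 7 of 9 other settings of the analysis. Between iWAT and eWAT the log2 change was -1.12 (-2.23 to -0.0049, adjusted p = 0.0849), which 1 sample of either depot moved: it was -1.77 without iWAT sample 7 (adjusted p = 0.00573) and -0.35 without eWAT sample 15 (adjusted p = 0.506). The scaling moved it too. By limma without TMM, Cfp was called higher in eWAT on log2(RPKM + 0.1) (-1.56, adjusted p = 0.00803) and on log2(RPKM + 1) (-1.28, adjusted p = 0.0127).

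The C1q chain genes lie side by side on chromosome 4, on the minus strand (C1qb at chr4:136436044-136442110, C1qc at chr4:136445717-136448980 and C1qa at chr4:136451831-136454759). In iWAT, C1qa was at 3.58 to 32.7 RPKM (median 5.60), C1qb at 4.30 to 31.9 RPKM (median 6.49) and C1qc at 1.97 to 13.1 RPKM (median 2.90). In BAT, C1qa was at 4.98 to 10.9 RPKM (median 6.94), C1qb at 4.98 to 10.5 RPKM (median 6.31) and C1qc at 2.32 to 6.44 RPKM (median 3.08). The iWAT range thus enclosed the BAT range for each chain, with iWAT samples 7 and 11 above all BAT samples. In eWAT, C1qa was at 9.14 to 146 RPKM (median 21.0), C1qb at 16.3 to 263 RPKM (median 25.0) and C1qc at 9.13 to 152 RPKM (median 16.1). Sample 15 was the highest by far in eWAT for each chain, followed by sample 13. The row of C1qc was 1932 bases long in iWAT and BAT and 1202 bases in eWAT, which lowers its RPKM in the first 2 depots. The fits with eWAT correct for the same lengths. The difference in length therefore also raises the C1qc fold changes of eWAT over the other depots given below, relative to genes with rows of equal length. In reads, the median ratio of C1qc to C1qa was 0.877 (iWAT), 0.986 (eWAT) and 0.933 (BAT).

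None of the 3 chains passed between iWAT and BAT. The log2 changes were 0.30 for C1qa (95% interval -0.77 to 1.38, adjusted p = 0.606), 0.44 for C1qb (-0.55 to 1.43, adjusted p = 0.414) and 0.15 for C1qc (-0.85 to 1.15, adjusted p = 0.792). All 3 were below 0 without iWAT sample 7, at -0.45, -0.22 and -0.44. Against BAT, eWAT was 3.33-fold higher in C1qa (1.30 to 8.53, adjusted p = 0.0219), 5.72-fold higher in C1qb (2.09 to 15.6, adjusted p = 0.00304) and 6.36-fold higher in C1qc (2.34 to 17.3, adjusted p = 0.00181). Sample 15 carried much of this: without it the log2 changes fell from 1.73 to 0.66 for C1qa (adjusted p = 0.229), from 2.52 to 1.20 for C1qb (adjusted p = 0.0254) and from 2.67 to 1.41 for C1qc (adjusted p = 0.0110). Between iWAT and eWAT, C1qb was 4.30-fold (1.60 to 11.5, adjusted p = 0.0146) and C1qc 5.83-fold higher in eWAT (2.16 to 15.7, adjusted p = 0.00445). C1qa missed the threshold, with a log2 change of -1.46 (-2.80 to -0.11, adjusted p = 0.0645), which became -2.22 without iWAT sample 7 (adjusted p = 0.00630) and -0.39 without eWAT sample 15 (adjusted p = 0.524). This call also depended on the processing. C1qa was called higher in eWAT by limma on log2(RPKM + 0.1) without TMM (-1.73, adjusted p = 0.0165). The same held in edgeR without the offset for row length (-1.89, adjusted p = 0.0414) and without eWAT sample 7 or 14 (0.0453 and 0.0367). With summed eWAT transcripts C1qa was at -0.70 (adjusted p = 0.313). Without eWAT sample 15, C1qb was at -0.79 (adjusted p = 0.158) and C1qc at -1.29 (adjusted p = 0.0275). Summing all eWAT transcripts ended the call of C1qc (log2 change -1.36, adjusted p = 0.0661) and that of C1qa in eWAT against BAT (0.99, adjusted p = 0.154).

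**Figure D2:**
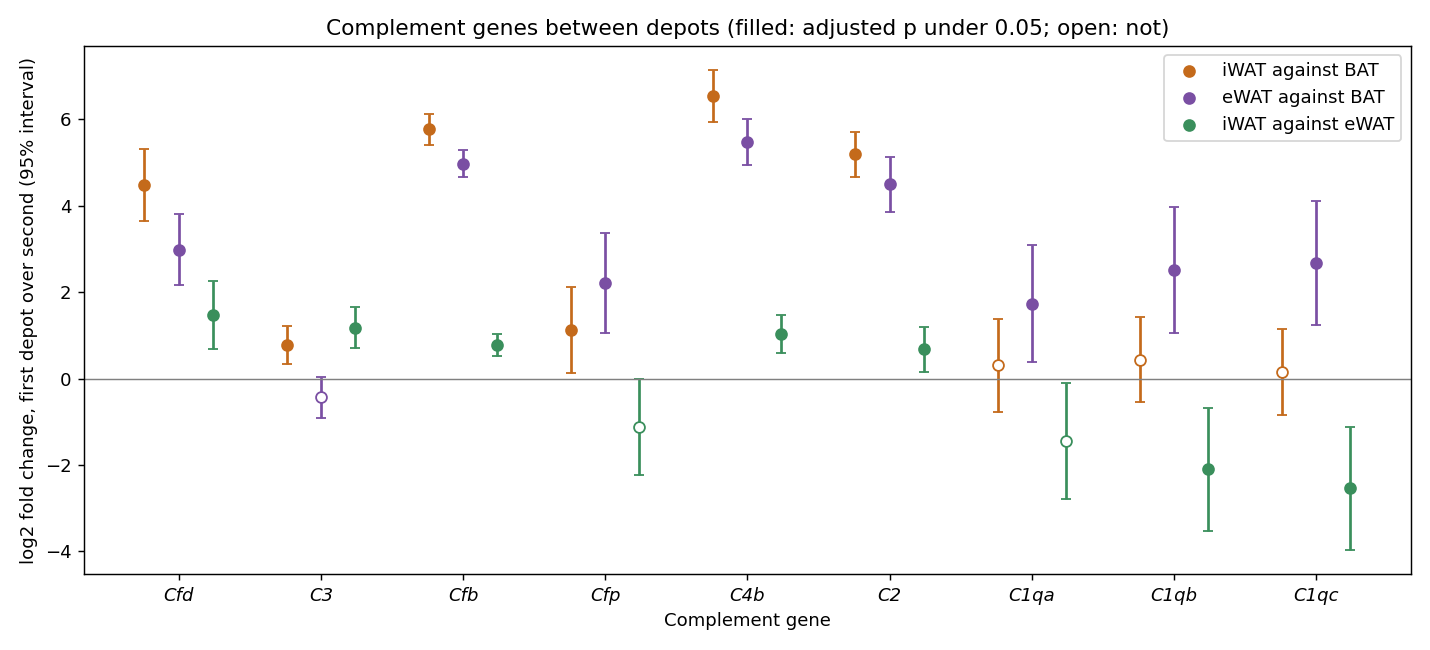
log2 fold changes of the 9 genes in the 3 comparisons, first depot over second, with 95% intervals (filled, adjusted p under 0.05). Cfb, C4b and C2 lie above 4 against BAT in both white depots, C3 stays between -0.43 and 1.18, and C1qb and C1qc lie below 0 for iWAT against eWAT.

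Among samples of 1 depot, the C1q chains had a close relation to macrophage markers in all 3 depots. By Pearson's r, Cfp had one of similar size in iWAT and in eWAT. No relation was under the threshold after adjustment. The score was the mean log2(RPKM + 0.1) of 10 macrophage genes, none of which was at 0 in any sample. The summed RPKM of these markers was 33.4 to 173 (iWAT), 175 to 2795 (eWAT) and 25.1 to 62.1 (BAT). iWAT samples 7 (3.24) and 11 (2.61) and eWAT sample 15 (6.55) had the highest scores in their depots. Pearson's r of the score with the C1q chains was 0.976 to 0.979 among iWAT samples, 0.966 to 0.997 among eWAT samples and 0.955 to 0.992 among BAT samples (n = 6 each). For C1qb, Spearman's rho was 0.943 (iWAT), 1.0 (eWAT) and 0.886 (BAT), and for Cfp Pearson's r was 0.977 (iWAT, adjusted p = 0.0848 by exact permutation), 0.987 (eWAT, 0.05) and 0.484 (BAT, 0.399). Part of the relation rests on extreme samples. When the 2 samples with scores most distant from the median were left out, r fell to 0.704 for C1qa, 0.720 for C1qb, 0.703 for C1qc and 0.086 for Cfp in iWAT. In eWAT it fell to 0.626 for C1qa, 0.924 for C1qb, 0.698 for C1qc and 0.720 for Cfp, and in BAT it was 0.897, 0.977 and 0.954 for the 3 chains. Over the 54 relations tested (9 genes, 3 depots and both coefficients), 24 had an unadjusted p under 0.05 by exact two-sided permutation, for which the smallest possible value is 0.00278. After Benjamini-Hochberg adjustment 18 of them were at 0.05 and 0 were under it. Among these relations at 0.05, C3 in eWAT was the sole gene besides the C1q chains and Cfp (rho = 0.943). The direction for C3 differed between depots, with Pearson's r of 0.727 (iWAT), 0.778 (eWAT) and -0.859 (BAT) and adjusted p of 0.271, 0.071 and 0.106. C2 gave r = 0.814 (iWAT), -0.891 (eWAT) and 0.234 (BAT), with adjusted p of 0.118, 0.0818 and 0.790. Cfd gave r = 0.618 (iWAT), -0.895 (eWAT) and -0.234 (BAT), with adjusted p of 0.464, 0.271 and 0.798. C4b gave 0.736, -0.589 and -0.0018 (adjusted p of 0.118, 0.397 and 0.922). The part of macrophages in the differences between depots was not tested. Of the 10 markers, 4 were higher in iWAT than in BAT, 9 were higher in eWAT than in BAT and 7 were higher in eWAT than in iWAT.

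**Figure D3:**
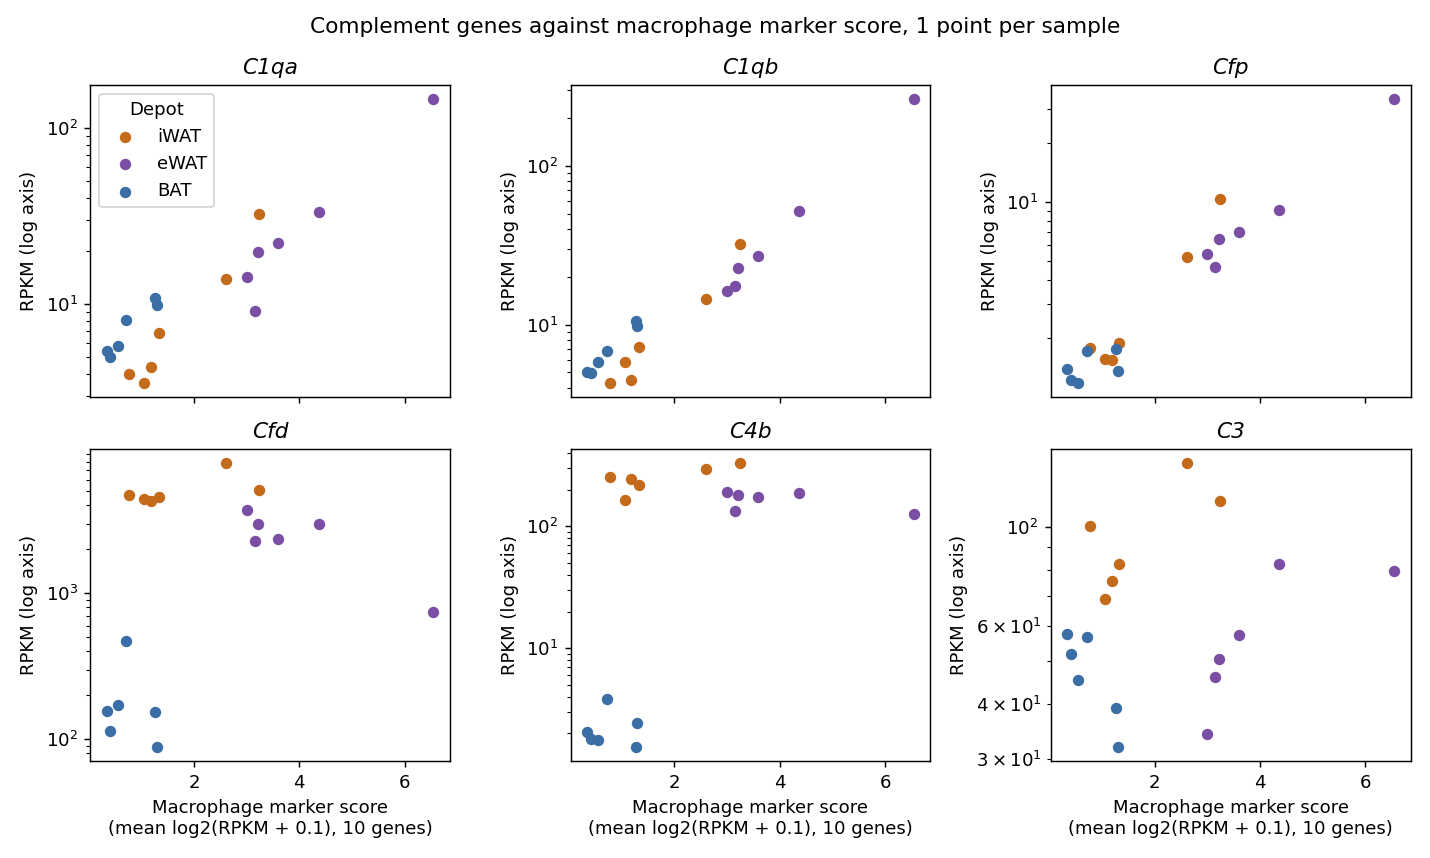
RPKM (log axis) of 6 complement genes against the macrophage marker score, 1 point per sample, coloured by depot. C1qa, C1qb and Cfp have their highest values at eWAT sample 15 (score 6.55). The white and BAT points of Cfd and C4b form separate levels, but the depots share little of the score range. Scores were 0.344 to 1.3 in BAT, 0.777 to 3.243 in iWAT and 3.0 to 6.545 in eWAT.

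The genes were also compared by the deviations of each sample from its depot's mean, given as a description over 18 samples that share 3 depots and a few extreme samples. The C1q chains followed each other with r of 0.975 to 0.992, and Cfp followed C1qa with 0.965. C4b followed C2 (0.838), Cfb (0.742) and Cfd (0.641), but C1qa only at 0.193, while Cfb followed Cfd at 0.392. C3 was nearer to Cfp (0.649) and C1qa (0.560) than to Cfd (0.053) or C2 (-0.142). Among 10338 symbols, the 3 most like C1qb were Csf1r (0.992), C1qc (0.992) and Laptm5 (0.980), and those most like Cfp were C1qa (0.965), Mrc1 (0.957) and C1qb (0.949). For C1qa they were C1qc (0.981), C1qb (0.975) and Csf1r (0.968), and for C1qc they were C1qb (0.992), C1qa (0.981) and Csf1r (0.980). Cfd was most like Dalrd3 (0.934), Trf (0.862) and Gsn (0.856). C2 was most like Lama4 (0.874), C1s (0.871) and Zfp395 (0.868). Cfb was most like Serpina3n (0.769), Lgals3bp (0.752) and LOC675521 (0.744). C4b and C3 were most like the rows that share their exons, and after these C4b was closest to Irs1 (0.776) and C1ra (0.773) and C3 to Prosc (0.763) and Hlx (0.752).

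Other marker lists also differed between the white samples and BAT, in the direction of Cfd, Cfb, C4b and C2. The 6 genes that respond to digestion, such as Fos and Egr1, were all higher in iWAT and in eWAT than in BAT, with a summed RPKM of 1746 to 2676 (iWAT), 1243 to 2042 (eWAT) and 12.9 to 60.1 (BAT). The 6 inflammatory and acute phase genes were likewise all higher in both, with sums of 1436 to 2372, 1084 to 1672 and 271 to 327 RPKM. Il6 and Saa3 were each listed at 0 in at least 1 BAT sample. The part of the digestion or of an inflammatory response in the complement differences was not tested.

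The remaining complement system was read from 4 lists with 49 genes, of which 30 could be tested between iWAT and BAT and 32 in the other comparisons. In iWAT against BAT 21 were higher in iWAT, 5 were higher in BAT and 4 did not pass, with a median log2 change of 1.39, where 34.0% and 33.6% of all rows were higher in iWAT and in BAT. In eWAT against BAT 23 were higher in eWAT, 3 were higher in BAT and 6 did not pass (median 2.03), where 39.9% and 34.0% of all symbols were higher in eWAT and in BAT. In iWAT against eWAT 4 were higher in iWAT, 14 were higher in eWAT and 14 did not pass (median -0.43), where 24.2% and 28.3% of all symbols were higher in iWAT and in eWAT.

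Among recognition molecules and proteases, 6 of 7 tested genes were higher in iWAT than in BAT (34.0% of all rows). C1s and C1ra, the proteases that C1q activates, were at 57.8 ± 7.77 and 18.9 ± 4.10 RPKM in iWAT (mean ± SD, n = 6), 43.2 ± 8.16 and 12.6 ± 2.71 in eWAT, and 8.70 ± 1.33 and 2.30 ± 0.538 in BAT. Their log2 changes in iWAT against BAT were 2.47 (SE 0.12, adjusted p = 4.00e-10) and 2.78 (SE 0.17, adjusted p = 6.40e-09). Both proteases of C1 were thus higher in iWAT than in BAT, where the C1q chains themselves did not pass. Colec12, a collectin scavenger receptor, was higher in iWAT than in BAT (log2 change 2.18, adjusted p = 5.87e-08), and Masp2, a protease of the lectin pathway, was higher in BAT (log2 change -1.66, adjusted p = 0.000819).

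In the terminal pathway, which builds the membrane attack complex, 3 of 7 genes could be tested. C6 averaged 7.38 RPKM in iWAT, 22.1 RPKM in eWAT and 0.023 RPKM in BAT, with log2 changes of 7.98 (SE 0.37, adjusted p = 3.77e-10) and 9.11 (SE 0.42, adjusted p = 8.09e-13) against BAT. C8g was higher in BAT than in iWAT (log2 change -2.03, adjusted p = 1.30e-08). C7 was higher in BAT than in iWAT (-1.11, adjusted p = 0.0291) and higher in eWAT than in BAT (1.25, adjusted p = 0.00583). The genes Hc, C8a, C8b and C9 did not reach the filter on low counts.

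Of the regulators, 8 of 11 tested were higher in iWAT than in BAT (34.0% of all rows) and 8 of 12 were higher in eWAT than in BAT (39.9% of all symbols). Serping1, the inhibitor of C1r and C1s, averaged 41.5 RPKM in iWAT, 63.2 in eWAT and 6.46 in BAT (log2 change 2.43 for iWAT against BAT). Clu, clusterin, averaged 6.77, 42.4 and 1.12 RPKM and was higher in eWAT than in iWAT (log2 change -2.21 for iWAT against eWAT). Cd59a, which blocks the membrane attack complex, was abundant in all depots (80.0, 70.6 and 38.5 RPKM) and was higher in iWAT than in BAT (log2 change 0.79), while its change in eWAT against BAT did not pass (0.15, adjusted p = 0.339). Cd59b averaged 8.28, 12.1 and 5.17 RPKM (log2 change 0.41 in iWAT and 0.49 in eWAT against BAT), and Cr1l averaged 4.47, 15.2 and 2.93 RPKM (0.35 and 1.64).

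Among receptors, 9 of 10 tested genes were higher in eWAT than in iWAT (28.3% of all symbols) and 0 were higher in iWAT (24.2%). C3ar1 and C5ar1, the anaphylatoxin receptors of phagocytes, averaged 1.42 ± 1.51 and 2.34 ± 2.14 RPKM in iWAT, 11.9 ± 16.8 and 13.97 ± 20.4 RPKM in eWAT and 0.283 ± 0.113 and 0.764 ± 0.403 RPKM in BAT (mean ± SD, n = 6). eWAT sample 15 set much of the eWAT mean, at 46.03 and 55.2 RPKM against 3.31 to 7.72 and 2.74 to 9.68 RPKM in the other 5. Itgb2, the shared chain of complement receptors 3 and 4, averaged 2.06 ± 1.24, 32.6 ± 50.2 and 0.737 ± 0.461 RPKM (log2 change -3.55 for iWAT against eWAT), with 134 RPKM in eWAT sample 15 and 5.95 to 25.6 RPKM in the other 5. Cd93 averaged 7.85, 19.2 and 7.10 RPKM, and its change in iWAT against BAT did not pass (-0.11, adjusted p = 0.767). C1qbp, which is also a mitochondrial protein, averaged 10.4 (iWAT), 26.3 (eWAT) and 17.3 RPKM (BAT). It was higher in BAT and in eWAT than in iWAT (adjusted p of 2.10e-08 and 1.16e-07). Calr, a chaperone of the endoplasmic reticulum, was higher in iWAT than in BAT (log2 change 1.10). Its change in iWAT against eWAT did not pass (0.12, adjusted p = 0.515). The means of C3ar1, C5ar1 and Itgb2 stood in the order eWAT, iWAT, BAT, as did those of Cfp, C1qa, C1qb and C1qc, although for C1qa and C1qc the medians of iWAT and BAT stood in the opposite order.

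**Figure D4:**
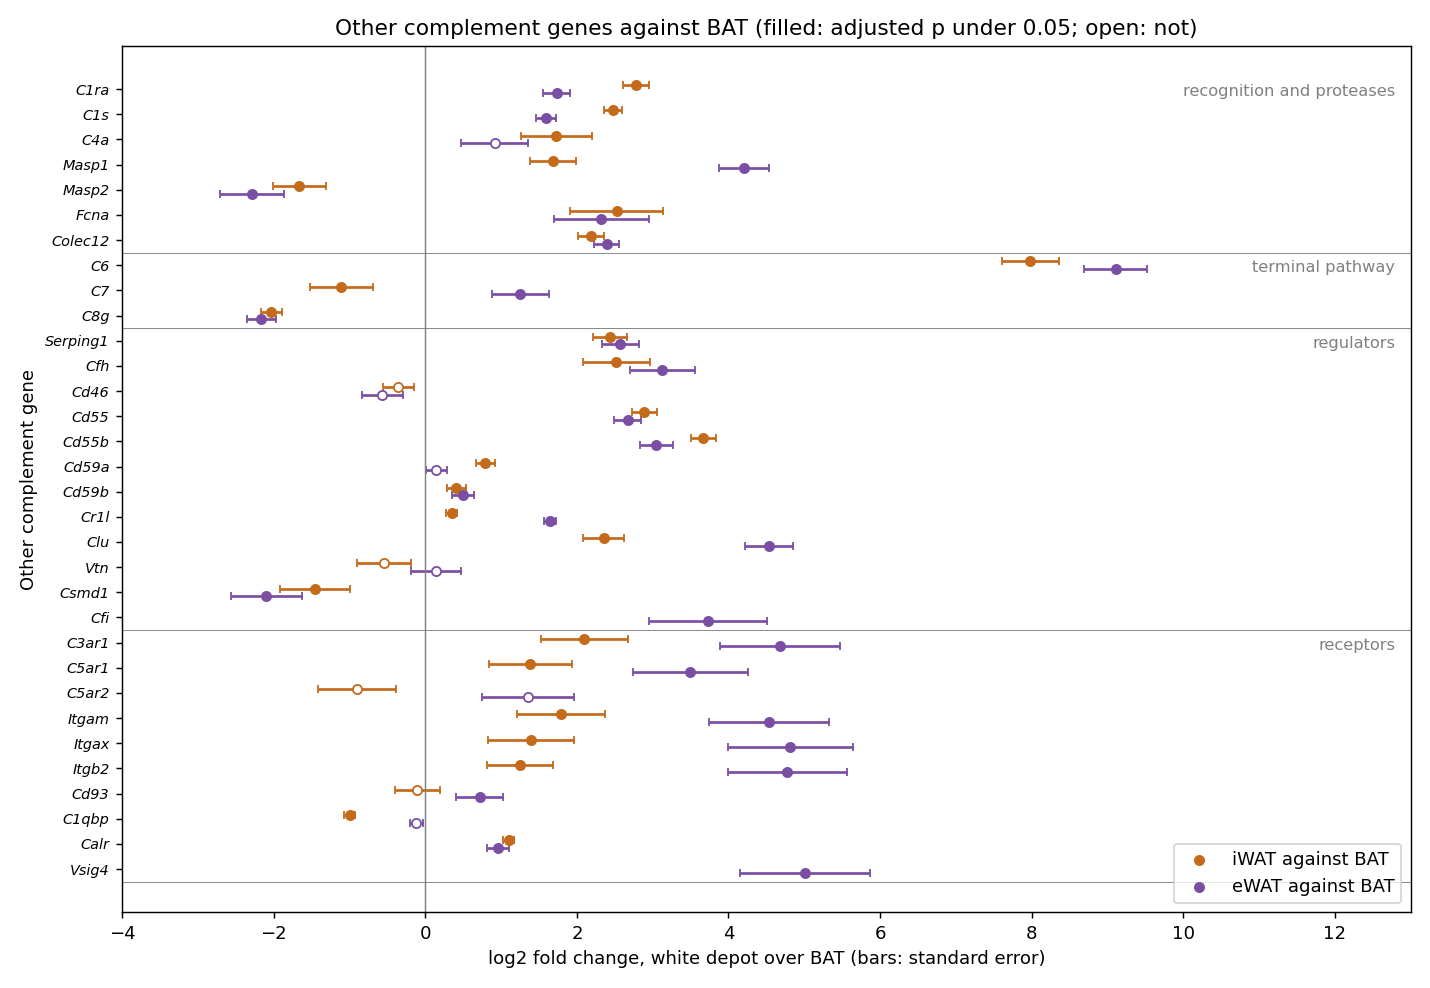
log2 fold changes of the other complement genes in iWAT and in eWAT against BAT, with standard errors (filled, adjusted p under 0.05), grouped by role. C6 lies farthest to the right (7.98 and 9.11), and Masp2 and C8g lie to the left of 0 in both comparisons.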

How the data were processed

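RNA-seq libraries of 18 samples (6 per depot) were prepared with NEBNext Ultra reagents and run on a HiSeq instrument. Per the submitters' processing notes, cutadapt (version 1.16) and HISAT2 (version 2.1.0) were used, and per the paper's methods the reads were mapped to mm9 and processed with the Genomatix Genome Analyzer. The authors deposited read counts per row, which are not normalized, and RPKM values, which equal the count divided by row length and by 1 read total per sample (22929576 to 34512470). Further normalized expression columns were not used. Strand in counting is not given in the sources used here, and intervals cover counting error and the spread between samples only.

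Rows are 53445 merged genes in iWAT and BAT and 189660 transcripts in eWAT. For each symbol the merged row was used, and in eWAT the transcript row with most reads. Where a symbol had several merged rows (1220 symbols) the most read was taken. The row was identical in both kinds of file for 3 of the 9 genes (Cfd, Cfb and C2). For C4b, C1qa and C1qb its length differed by at most 6 bases. The merged row was longer than the eWAT row by 212 bases for C3, 212 bases for Cfp and 730 bases for C1qc.

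Counts were tested by glmQLFit and glmQLFTest of edgeR 4.0.16 (R 4.3.3), with TMM scaling, a filter that kept rows reaching 10 reads in 6 or more samples, and Benjamini-Hochberg adjustment over all rows. iWAT and BAT were fitted in 12 samples. Comparisons with eWAT were fitted in all 18 samples with an offset for row length. Standard errors and 95% intervals derive from the F statistic. The code was tested on simulated counts. No label says that samples came from separate mice, so p-values measure the spread between these samples. No 2 libraries of a depot were identical.

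Members, lists and tests were chosen with earlier results of these data known. All 9 genes are named. From the other complement lists, the up to 4 genes with the highest mean RPKM per class were named, and any called gene whose mean RPKM reached 10 in its higher depot. Older symbols (Emr1, Daf2 and Gpr77) were matched to Adgre1, Cd55b and C5ar2, and C1s2 and Cfhr2 were not found by symbol. Likeness was Pearson's r of log2(RPKM + 0.1) after each depot's mean was subtracted. Alternatives used DESeq2 (version 1.42.0), limma (version 3.58.1), other filters, other eWAT rows, a block and leaving out samples.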

Additional observations from a re-analysis of the deposited data

Results flagged for a closer look

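The value of each gene in each depot, the macrophage score and the read total were searched for a sample whose gap to its nearest neighbour was too large a share of the group's range (above Dixon's 95% critical value for 6 samples). Of 33 groups examined 9 had such a sample. The critical value gives about 1 in 20 for normal values, whereas gene levels were searched as RPKM without a log. The C1q chains and Cfp also moved together among samples. The 9 are therefore not separate events and cannot be set against that rate. All 9 were highest values. In eWAT, sample 15 stood apart for C1qa (145.8 RPKM, the others up to 33.1), C1qb (263.0 RPKM, the others up to 52.1), C1qc (152.0 RPKM, the others up to 31.7) and Cfp (33.59 RPKM, the others up to 9.11). In iWAT, sample 7 stood apart for C1qa (32.66 RPKM, the others up to 13.9) and C1qb (31.93 RPKM, the others up to 14.6). Cfd stood apart in iWAT sample 11 (7772 RPKM, the others 4263 to 5107) and in BAT sample 7 (469.8 RPKM, the others 88.4 to 171). Cfb stood apart in eWAT sample 13 (111.6 RPKM, the others 88.4 to 91.7). The read totals of these samples did not stand apart.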

How the results depend on the processing

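Of 645 recomputed log2 changes of single genes, 582 kept their direction and their side of the threshold, 16 became significant, 42 lost significance and 5 reversed. The reversals were C3 in eWAT against BAT on unscaled values with limma (0.27 with a pseudocount of 0.1 and 0.27 with 1, log2 scale) and C1qa, C1qb and C1qc in iWAT against BAT without iWAT sample 7, where leaving out 1 sample gave ranges of -0.45 to 0.50, -0.22 to 0.62 and -0.44 to 0.33. On rows identical in both kinds of file, where 3 genes have a row, 3 passed in eWAT against BAT and 1 in iWAT against eWAT. With a minimum fold change of 1.5 (edgeR's glmTreat), 4 passed in iWAT against eWAT, 4 in iWAT against BAT (C3 and Cfp lost, adjusted p of 0.157 and 0.149) and 7 in eWAT against BAT (C1qa lost, 0.0527). Over the samples left out in turn, 5 to 6 genes passed in iWAT against BAT, 8 to 9 in eWAT against BAT and 5 to 8 in iWAT against eWAT. In the macrophage relations, where 18 adjusted values sat at 0.05, leaving Emr1 or Lyz2 out of the score gave 20 relations under the threshold and leaving Cd68 out gave 19, while the other 7 markers and a pseudocount of 1 gave 0.

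Without TMM (limma, pseudocount 0.1), the share of higher calls among all rows went from 50.3% to 65.2% in iWAT against BAT, from 54.0% to 77.9% in eWAT against BAT and from 46.1% to 10.2% in iWAT against eWAT, with all-row medians of 0.241, 0.713 and -0.343. Summing all eWAT transcripts, which counts a read once for each transcript it meets, put Cfd at 1.59 and C2 at 3.06 in eWAT against BAT, and at 2.88 and 2.12 in iWAT against eWAT. With the number in the titles as a replicate block, 5, 6 and 5 genes passed in iWAT against BAT, eWAT against BAT and iWAT against eWAT. That block ended the calls of Cfp (iWAT against BAT, adjusted p = 0.0566), C1qa and C1qb (eWAT against BAT, 0.177 and 0.0882) and C1qb and C1qc (iWAT against eWAT, 0.139 and 0.0506). Deviations of equally numbered samples correlated at -0.067 to 0.083, -0.180 to -0.011 and -0.230 to 0.211 in these pairs of depots. Such values cannot show whether equal numbers mark 1 mouse. Because the labels do not say so, the block is given as an alternative only, and a pairing remains possible. Without eWAT samples 14 and 15, 7 genes passed in eWAT against BAT and 5 in iWAT against eWAT. The cause of these changes was not tested.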
